A study of Rattus norvegicus with 2 samples.

Results

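The genes described here are 9 genes of noradrenaline signalling, Adra1a, Adra1b, Adra1d, Adra2a, Adra2b, Adra2c, Adrb1, Adrb3 and Dbh, measured in the hypothalamus of male and female rats. They were chosen by name: every spot that was not a control and whose gene name in the array files is one of the 9 was taken. This gave 18 spots of 9 probes, out of 42877 such spots and 30367 probes for 26326 genes or other targets. Of the 9 genes, 8 were measured, meaning well above background in both pools, and these 8 are the receptors. Dbh was not. The gene of the beta-2 receptor is not among the 9 and was not analysed here.

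All rats were Wistar Kyoto (WKY), a normotensive strain, aged 9 weeks and untreated, with free access to food and water, and were killed under ether by decapitation. The whole hypothalamus of 5 males gave the male pool and that of 5 females the female pool, each rat giving 100 ng RNA, and a 150 ng portion per pool went through Cy3 labelling onto 1 Agilent array. The study's question was about sex differences in brain centres that control the circulation. Each sex is thus 1 array of pooled RNA, which hides the spread between rats, and the stage of the oestrous cycle is not given in the sources used here.

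Noradrenaline is made from dopamine by dopamine beta-hydroxylase, the product of Dbh, inside the vesicles of noradrenergic neurons. The cell bodies of these neurons lie in the brainstem, in the locus coeruleus and the caudal medulla, and their axons reach the hypothalamus, where noradrenaline acts on hormone release, feeding and sympathetic outflow. Its receptors are coupled to G proteins: alpha-1 receptors act through Gq and phospholipase C, alpha-2 receptors through Gi and often as brakes on noradrenaline release, and beta receptors through Gs and adenylyl cyclase.

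The probes are DNA oligonucleotides of 60 bases, and their sequences decide what each level reports. Parts of 4 probes are shown for the features they hold, which by themselves do not place a probe on the messenger. The Adrb1 and Adra2c probes end in a stop codon with that reading frame open before it (stop codon in capitals). The Adrb3 probe ends in the polyadenylation hexamer AATAAA (in capitals). The Adra1d probe, the one spotted 10 times, holds the pentamer ATTTA at 2 places (in capitals). The first pair are printed whole and the others as 30 bases, 5′ to 3′ in the sense of the messenger, the only strand searched.
Adrb1: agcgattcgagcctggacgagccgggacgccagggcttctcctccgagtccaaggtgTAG
Adra2c: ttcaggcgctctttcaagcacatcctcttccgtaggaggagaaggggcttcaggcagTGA
Adrb3: cccttttccacttaaaatcaaattAATAAA
Adra1d: agccttATTTAtcattttgaaacctATTTA
Of all probes, 11.7% end in a stop codon with an open frame before it, 8.39% hold AATAAA and 6.58% hold ATTTA, so these features are common on the array. The Adrb1 probe is rich in G and C, at 65.0%, and the Adrb3 probe poor, at 35.0%, against a median of 45.0% over all probes. The longest run of bases that any of the 9 probes shares with another of them is 7, so the probes of these related receptors read different sequences. Against all other genes on the array the longest shared run is 12 to 17 bases.

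The files place the Adrb1 probe on chromosome 1 at 263026996 to 263027055 in build rn4, and the Adra1d, Adra2b and Dbh probes on chromosome 3, at 119280059 to 119280118, at 114869275 to 114869334 and at 6069770 to 6069826. The Adra1b probe lies on chromosome 10 at 28889094 to 28889153, Adra2c on chromosome 14 at 81108144 to 81108203, Adra1a on chromosome 15 at 46263114 to 46263173 and Adrb3 on chromosome 16 at 69166311 to 69166370. The Adra2a probe is given as unmapped. An annotation of exons in this build was not used here.

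The level of a spot is log2 of its processed intensity minus log2 of the 75th percentile of its array, which was 3769 for males and 2943 for females. Each difference is female minus male on the log2 scale. With 1 array per group there is no replicate check, no test and no p-value. The technical SD given with a difference comes from the scatter of the difference between repeated spots of 1 probe at a like level. That scatter was taken separately inside and outside bands of slide rows where such spots often depart from each other. For a gene with several spots or probes the technical SD is the error of their mean, so it shrinks as spots are added. For Adra1d, with 10 spots, it is 0.025 log2, and 2 technical SD is passed more easily there than on 1 spot. The technical SD leaves out the rats, the labelling and whatever all spots of an array share. The deposited files also give an error of each intensity from the scanner software's error model, which was close to 10% for all but the dimmest spots and amounts to about 0.20 log2 for a difference between 2 spots. Of the 18 spots, 0 were flagged as outliers and 0 were saturated.

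No receptor measured reached a 1.5-fold difference between the pools. Of the 8 receptor genes, 5 had the higher level in females and 3 in males, and the differences ran from -0.19 to 0.17 log2. This split depended on the processing, which also moved the median of all genes. It was 3 to 5 with spike-in scaling, where the median of all genes was -0.094 log2. It was 1 to 7 with normexp, a model-based correction for local background, fitted on all spots, where that median was -0.552. With normexp fitted without flagged local backgrounds it was 8 to 0, where that median was 0.048. A count of 0 of 8 reached 1.5-fold, against 2.39% of the 20655 genes measured in both pools (1.55% higher in females, 0.842% higher in males), and 0 of 8 reached 2-fold, against 0.847%. The median difference over the 8 was 0.038 log2, beside 0.000108 over all genes. A count of 1 of 8, Adra1b, lay beyond 2 technical SD, which 26.6% of all genes did (14.3% higher in females, 12.2% higher in males), so the receptors did not exceed the background by this measure. Levels of different probes cannot be set against each other, since probes differ in how well they bind their targets.

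**Figure D1:**
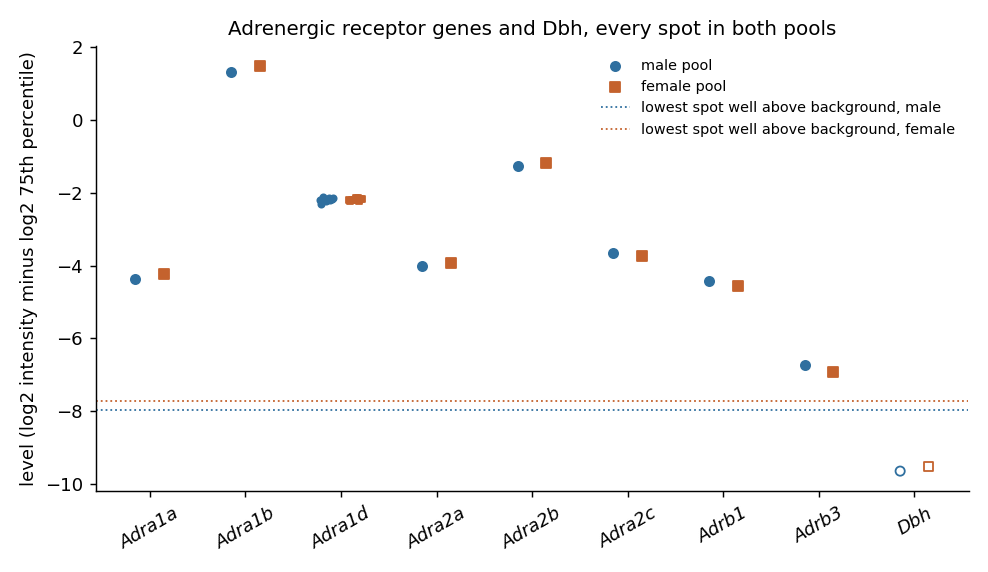
Level of every spot of the 9 genes (log2 intensity minus log2 75th percentile of the array) in the male pool (circles) and the female pool (squares); dotted lines mark the lowest spot well above background on each array, at -7.97 and -7.72, and open symbols a gene not well above background. The symbols of the 2 pools lie side by side for each receptor, and Dbh lies below both lines; heights of different genes are not comparable.

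The alpha-1 receptors, which raise calcium through phospholipase C and drive excitation of vasopressin and other neuroendocrine neurons, were level or slightly higher in the female pool. Adra1d, the alpha-1D receptor, was measured on 10 spots and is the most precisely measured of the 9. Its intensity ran from 761 to 868 (median 825) for males and from 622 to 662 (median 644) for females. After scaling, the male levels ran from -2.31 to -2.12 and the female levels from -2.24 to -2.15, so the pools overlapped. The difference was 0.0017 ± 0.040 log2 (SD over 10 spots), with 5 spots higher in each direction. The 6 spots inside the bands gave a mean of -0.0075 and the other 4 a mean of 0.016.

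**Figure D2:**
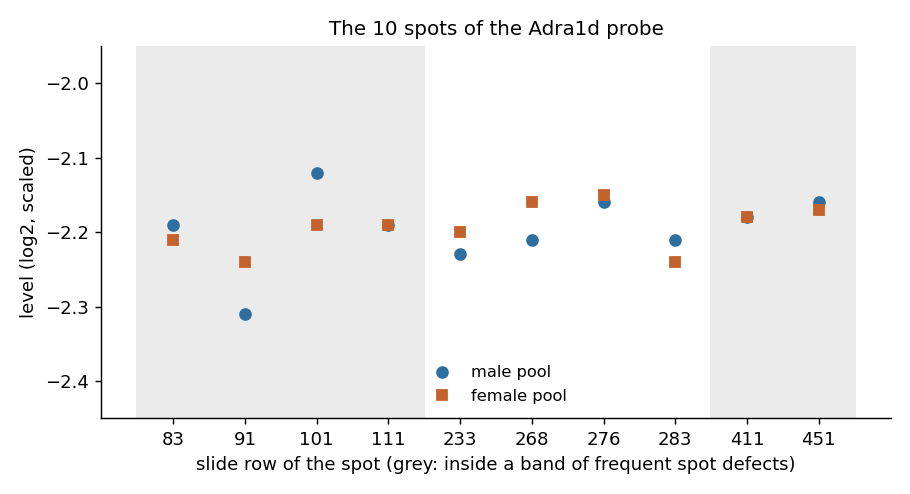
Level (log2, scaled) of the 10 spots of the Adra1d probe, by slide row, in the male pool (circles) and the female pool (squares), with spots inside a band of frequent defects on grey. The symbols cross from spot to spot and neither pool is higher throughout.

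Adra1a, the alpha-1A receptor, had 1 spot outside the bands, with an intensity of 181 for males and 158 for females. Its levels were -4.38 and -4.22, a difference of 0.16 log2 with a technical SD of 0.14, or 1.12-fold higher in the female pool. Adra1b, the alpha-1B receptor, had 1 spot inside a band, with an intensity of 9261 for males and 8144 for females. Its levels were 1.30 and 1.47, a difference of 0.17 log2, 1.13-fold, which is 2.40 times its technical SD of 0.071. That is the receptor difference that stands out most from spot scatter, yet 25.2% of all genes had a larger difference in either direction. It was no longer beyond 2 technical SD with spike-in scaling, at 0.077 log2. Nor was it with normexp fitted without flagged local backgrounds, at 0.088 log2 with a technical SD of 0.24. With spike-in scaling the receptor beyond 2 technical SD was Adra1d, at -0.092 log2 with a technical SD of 0.025. The median of all genes was -0.094 log2 there, so Adra1d lay close to it. With that normexp correction the receptor was Adra1a, at 0.19 with 0.076, where the median of all genes was 0.048. The share of all genes beyond 2 technical SD was not taken under these settings. Another probe on the array, annotated in the files to exon 1 of the alpha-1B receptor gene under a sequence name in place of the gene's name and so outside the 9, gave an intensity of 34.9 for males and 26.3 for females. Its difference was -0.054 log2 with a technical SD of 0.20, on 1 dim spot inside a band. That SD is larger than the 0.17 log2 of the first probe. The second alpha-1B probe therefore cannot show whether the difference of the first holds.

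The alpha-2 receptors, which lower cyclic AMP and on noradrenergic terminals restrain release, differed by less than 0.1 log2 or little more. Adra2a, the alpha-2A receptor and a target of the blood pressure drug clonidine, had an intensity of 232 for males and 194 for females on 1 spot inside a band. Its levels were -4.02 and -3.92, a difference of 0.10 log2 with a technical SD of 0.20. Adra2b, the alpha-2B receptor, had an intensity of 1577 for males and 1297 for females on 1 spot outside the bands. Its levels were -1.26 and -1.18, and the difference of 0.075 log2 stood beside a technical SD of 0.053. Adra2c, the alpha-2C receptor, had an intensity of 301 for males and 221 for females on 1 spot inside a band. Its levels were -3.65 and -3.73, a difference of -0.087 log2 with a technical SD of 0.20. The raw intensity of all 3 was lower in the female pool, as was the 75th percentile of its array, and after scaling Adra2a and Adra2b lay slightly above and Adra2c slightly below the male level. None of the 3 differences exceeded 2 technical SD, and Adra2c turned to 0.018 log2 with that normexp correction.

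The beta receptors, which raise cyclic AMP, were both slightly lower in the female pool. Adrb1, the beta-1 receptor and the main adrenergic receptor of the heart, had an intensity of 175 for males and 125 for females on 1 spot outside the bands. Its levels were -4.43 and -4.56, a difference of -0.13 log2 with a technical SD of 0.14, 1.09-fold higher in the male pool. Adrb3, the beta-3 receptor of fat cells, was the dimmest receptor spot, with an intensity of 35.7 for males and 24.6 for females inside a band. Its levels were -6.72 and -6.91, a difference of -0.19 log2 with a technical SD of 0.20, 1.14-fold higher in the male pool. Both differences were within 1 technical SD, and both turned to the other side, to 0.055 and 0.20 log2, with normexp fitted without flagged local backgrounds. Of 5 fat cell markers, Adipoq, Ucp1, Plin1 and Fabp4 were well above background in neither pool, and Cidea, picked out with its value known, had a difference of 0.060 log2.

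**Figure D3:**
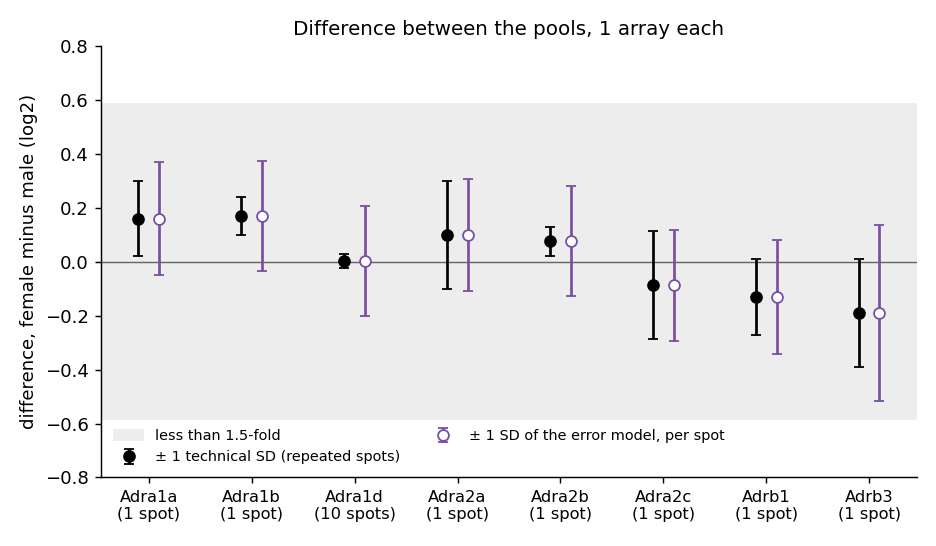
Difference between the pools (female minus male, log2) of the 8 receptor genes, with 1 technical SD from repeated spots (filled circles) and 1 SD of the scanner's error model for a single spot (open circles); the grey area marks less than 1.5-fold. All 8 points lie inside it, and all 8 error model bars cross 0.

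**Figure D4:**
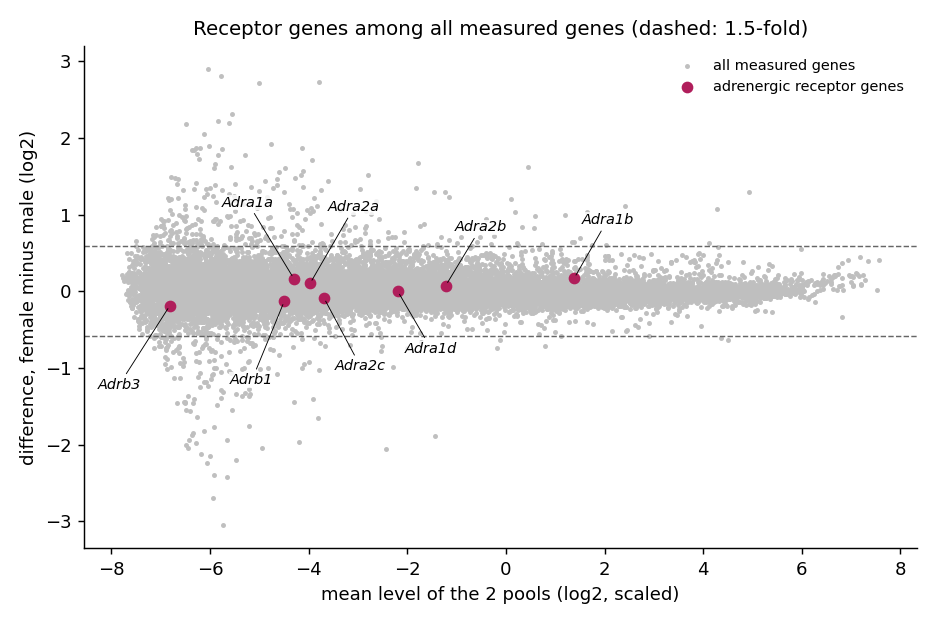
Difference between the pools (female minus male, log2) against the mean level of the pools (log2, scaled) for all 20655 measured genes (grey) and the 8 receptor genes (red), with 1.5-fold as dashed lines. The receptors lie inside the bulk of genes of like level, from Adrb3 among the dim genes to Adra1b among the bright ones.

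Dbh gave an intensity of 4.71 for males and 4.01 for females, each about as large as its own error model SD. Neither was well above background: the levels were -9.64 and -9.52, below the lowest levels that passed on the arrays, -7.97 and -7.72. No difference is given for Dbh for that reason, and its single probe does not show how low the messenger was. Phox2a, a transcription factor that switches on Dbh in noradrenergic neurons, did not rise well above background on either array. Slc6a2, which encodes the noradrenaline transporter and is named after its values were seen, was measured on 2 probes of 1 spot each that differed in sign, 0.058 and -0.28 log2. Pnmt, which turns noradrenaline into adrenaline and is also named after its value was seen, had levels of -0.89 in both pools and a difference of -0.0035 log2.

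Around these genes, 72 genes of noradrenaline handling and of receptor signalling were listed from background knowledge in 5 groups, and 64 were measured. Of the 64, 1 reached 1.5-fold, 1.56% against 2.39% of all genes, and 21 lay beyond 2 technical SD, 32.8% against 26.6%. The named genes are the 4 with the largest difference in each group; for the transcription factors 3 of these 4 are given.

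Genes of catecholamine synthesis, transport and breakdown were mostly lower in the female pool, 11 of 13, with a median of -0.10 log2. Beyond 2 technical SD, 5 of the 13 were higher in males, against 12.2% of all genes, and 2 in females, against 14.3%. Slc6a3, the dopamine transporter gene, differed by -0.54 log2 as the mean of probes of -0.83 and -0.25, and Th, the rate-limiting enzyme of catecholamine synthesis, by -0.42 with a technical SD of 0.071 on 1 spot inside a band. Slc18a2, which loads monoamines into vesicles, differed by -0.26 log2 with a technical SD of 0.048. Sult1a1, a sulfotransferase that inactivates catechols and other phenols, went the other way, at 0.49 log2 with a technical SD of 0.048. Th, Slc6a3 and Slc18a2 are also genes of the hypothalamus's own dopamine neurons, so they do not report on noradrenergic cells alone. The median of this group was -0.04 log2 with normexp fitted without flagged local backgrounds, where that of all genes was 0.048. With normexp fitted on all spots it was -0.19, above the -0.552 of all genes. Some markers of hindbrain and pituitary were lower in females as well. Of 5 noradrenergic and hindbrain markers on the array, Slc6a2 and Hoxa2 were measured, at -0.11 and -1.55 log2, Hoxa2 on 1 dim spot inside a band. Phox2a, Hoxb2 and Hoxb3 were not well above background. With these included, the summed levels were 5.04 for males and 3.47 for females, on a scale where the 75th percentile of the array is 100. Most of that fall is the Hoxa2 spot. Of 8 pituitary markers 6 were measured, 4 of them higher in males, with summed levels of 329 and 218, and Tshb, the thyrotropin beta chain, was 4.15-fold higher in males. Such sums are led by the brightest probe, here Cga, and are not amounts of a cell type. Prolactin and growth hormone are the most abundant pituitary products; Gh1 was not well above background, and Prl was so in females only, at least 4.74-fold higher there. The part of these cells in the differences of the group was not tested.

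Of 8 transcription factors of noradrenergic neurons on the array, 5 were measured. Tfap2b, which encodes AP-2 beta, was the 1 gene of the 64 past 1.5-fold, with a male level of -5.41 and a female level of -4.66, a difference of 0.75 log2 or 1.68-fold on 1 spot outside the bands with a technical SD of 0.14. It fell short of 1.5-fold, at 0.55 log2, with normexp fitted without flagged local backgrounds. Lmx1b differed by 0.38 log2 on a spot inside a band, and Tfap2a by -0.067 log2. Gata3 passed the background limit in males only, at least 4.07-fold higher there on 1 spot inside a band. Hand2 did not rise well above background on either array.

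Of 46 signalling genes downstream of the receptors 0 reached 1.5-fold, and 13 lay beyond 2 technical SD, 28.3% against 26.6% of all genes. Of the 46, 11 were beyond it and higher in females, against 14.3% of all genes, and 2 higher in males, against 12.2%. The median difference of all genes, beside those below, was 0.000108 log2. Among 11 G protein genes, 8 had the higher level in females (median difference 0.030 log2), and the largest differences were 0.24 for Gna11, -0.18 for Gna14, 0.14 for Gnas, the Gs alpha subunit used by beta receptors, and 0.12 for Gnb1. Among 18 genes of adenylyl cyclases, phospholipase C and kinases, 12 had the higher level in females (median difference 0.071 log2). Of these, the calcium-independent protein kinase C gene Prkce differed by 0.53 log2, with its probes at 0.54 and 0.51, Plcb2 by 0.56 on 1 dim spot, Adcy4 by -0.35 on a spot inside a band, and Plcb1 by 0.16 with probes at 0.0087 and 0.32. Among 17 regulators of receptor signalling, 10 had the higher level in females (median difference 0.035 log2). The phosphodiesterase gene Pde4a differed by 0.21 log2, Rgs7 and Rgs2, which shorten G protein signals, by 0.20 and 0.16, and Spn by -0.22 with probes at 0.038 and -0.47. Spn encodes a leukocyte surface protein and does not belong among the regulators by function; without it, 10 of 16 had the higher level in females and the median was 0.036 log2. The medians of these 3 groups turned below 0 with spike-in scaling, to -0.063, -0.023 and -0.059 log2, where the median of all genes was -0.094.

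Of the hypothalamic neuron markers, 16 of 16 were measured in both pools, among them Avp, Oxt, Hcrt and Pmch. So were 20655 of 26326 genes or other targets on the array, and all markers of blood, meninges and oligodendrocytes that it holds. Being measured is thus a weak check of the tissue label. Beyond 2 technical SD, 6 of the 16 neuron markers were higher in females and 4 in males, against 14.3% and 12.2% of all genes. Their median difference was 0.0075 log2, and 0 reached 1.5-fold. Markers of some other cells differed between the pools as well. Meningeal and fibroblast markers were higher in the female pool in 9 of 9 genes, with a summed level of 182 for males and 359 for females on the same scale. Blood markers were lower in 5 of 5, with summed levels of 1327 and 1063, most of which is Hbb. Smooth muscle and pericyte markers, of cells on which alpha-1 receptors act, had a median of 0.14 log2 over 9 genes, from -0.47 for Notch3 to 0.53 for Cnn1. Pineal markers, of a gland rich in beta-1 receptors, had a median of 0.049 over 5, with 0 beyond 2 technical SD. Markers of endothelium, microglia, oligodendrocytes and astrocytes had 0 genes at 1.5-fold, which 2.39% of all genes reached. Their medians were 0.015, 0.032, -0.058 and -0.069 log2. Beyond 2 technical SD, 3 of 7 astrocyte markers were higher in females and 2 in males. For 7 oligodendrocyte markers these counts were 1 and 4, for 6 microglia markers 1 and 1, and for 7 endothelium markers 0 and 1. In pooled bulk RNA, fewer cells of a type and less RNA per cell cannot be told apart, and the part of these cells in the receptor differences was not tested. A single slide and scan carried the arrays.

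**Figure D5:**
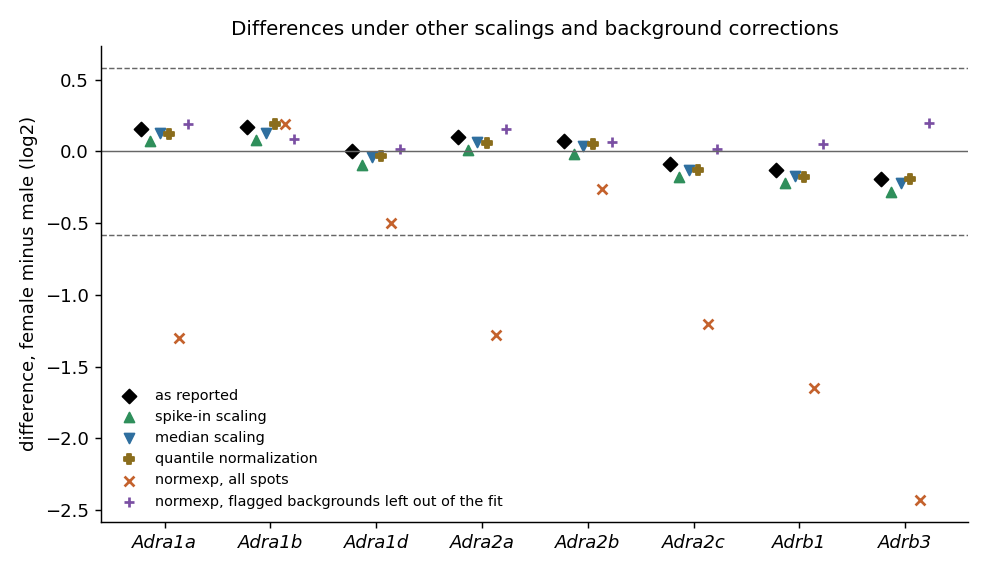
Difference between the pools (female minus male, log2) of each receptor gene as reported (diamonds) and under 5 other scalings or background corrections, with 1.5-fold as dashed lines. Median and spike-in scaling shift all genes together, by under 0.1 log2, and quantile normalization shifts them unequally; normexp fitted on all spots pulls the 5 dimmer receptors past 1.5-fold, and normexp fitted without flagged local backgrounds brings them back inside it.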

How the data were processed

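Each deposited scanner file gives an intensity per spot; per the file headers it was background-subtracted and detrended by Agilent Feature Extraction 10.7.3.1, with build rn4. The submitters' processing notes name version 9.1, and which version made the values is unsettled. The deposited value table is, by comparison, this intensity times 100 over the 75th percentile of its array. Other deposited columns used are flags per spot (well above background, saturated, outlier), per the file headers, and the error of each intensity.

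Outlier spots (286 and 292 per array) were left out, spots averaged per probe and probes per gene, and a probe needed over 50% of its spots well above background on both arrays. Probes were named by RefSeq accession, symbol or synonym (21010 of 30367; the rest keep the file's name) with a gene table of assembly GRCr8. The technical SD came from probes with 5 or more spots in 4 level groups. Bands are 20-row blocks where over 2.5% of repeated spots departed by over 4 robust SD: rows 80 to 179, 400 to 459 and 520 to 532. In them 5.51% departed, elsewhere 1.05%. A gene well above background in 1 pool only has a bound against the higher of the dim array's lowest level well above background and the probe's own. Genes were named by the rule stated in the text; 1 gene that it names is not reported here. The genes and lists were chosen with earlier results of these data known. Calculations used Python 3.11.15 and limma 3.58.1 (normexp). The differences and the technical SD were tested on simulated data with the same noise at every level. The bands, the background filter and normexp were not part of that test. Alternatives changed the background, scaling, filter, outliers, probe choice, bands and value source.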

Additional observations from a re-analysis of the deposited data

How the results depend on the processing

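Each of the 8 receptors stayed under 1.5-fold in all alternatives but normexp background fitted on all spots. There 5 receptors and 10125 of all genes reached 1.5-fold. Beyond 2 technical SD, which in the alternatives was counted over the receptors and not over all genes, lay 7 receptors. The median over the receptors was -1.24 log2, beside -0.552 over all genes, and Tfap2b turned to -1.48. In that fit the male array's background mean was -594.6, with a lowest net signal of -19745; it was -446.1 without that spot and -0.058 without the spots of flagged local background. A fit without flagged local backgrounds, added after the data were seen, gave 0 receptors and 214 genes past 1.5-fold, with Tfap2b at 0.55. All 8 receptors were higher in females in it, where the median of all genes was 0.048 log2. The median over the receptors was -0.056 with spike-in scaling, beside -0.094 over all genes. The count beyond 2 technical SD was 0 with median scaling, with outlier spots kept and without the row bands, the last of which leaves 4 receptors; the 1 receptor was Adra1d with spike-in scaling, Adra1a in the added fit and Adra1b in the other 5 alternatives. All genes past 1.5-fold numbered 494 as reported, 2075 with no filter on dim probes and 191 without the row bands. Adra1d changed sign in 4 of 11 alternatives, Adra2b in 2 and Adra1b in none of the 10 that give it a value. No paired analysis was possible because each sex is 1 pool on 1 array, and no replicate could be left out. Precision is limited by the 2 arrays, by 7 of the 8 receptors resting on 1 spot, and for Adrb3 and Dbh by signals near background.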
